A study of Mus musculus with 20 samples.

Results

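The genes of H3.3, the linker histones and the histone chaperones that place histones on DNA were followed in single mouse embryos at the 8-cell stage. The set held 10 genes, chosen by symbol from the 34937 genes counted: H3f3a, H3f3b, Cenpa, H1f0, H1fx, H1foo, Asf1a, Asf1b, Hira and Chaf1a. The study asked what happens before implantation when the oocyte supplies no G9a, the H3K9 methyltransferase encoded by Ehmt2. RNA of 19 whole embryos, collected at E2.5 from natural matings and judged morphologically normal, was amplified and sequenced embryo by embryo. The 9 control embryos, Ehmt2Cntr, came from Ehmt2F/+ Zp3-Cre mothers, and the 10 maternally depleted embryos, Ehmt2Mat, came from Ehmt2F/- Zp3-Cre mothers, so that mothers of both groups carried the Cre that acts in growing oocytes. Mothers of both groups were mated with Ehmt2+/- males, and all embryos were of mixed background. Of the controls, 6 were zygotically Ehmt2 +/+ and 3 were +/-. Of the Ehmt2Mat embryos, 5 were +/- (Ehmt2M/+) and 5 were -/- (Ehmt2M/Z). Control embryo 4 was not analysed here. Levels are given as CPM, an embryo's count for a gene scaled by its total count times a TMM normalization factor (0.853 to 1.12). A level relative to the embryo's other RNA is therefore compared, and fewer cells of a type and less RNA per cell cannot be told apart.

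Nucleosomes of dividing embryos are built from histones made in S phase and from variants. H3.3, made all through the cycle, is the main replacement H3, and CENP-A is the H3 of centromeres. ASF1 receives new H3-H4 pairs and passes them to CAF-1 at the replication fork or to HIRA, which deposits H3.3 outside replication. Linker H1 binds where DNA enters and leaves the nucleosome, and the oocyte carries its own form, H1foo, which is replaced by somatic H1 during cleavage.

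Total counts ran from 8231646 to 30602434 an embryo, so that 3 counts were worth 0.098 to 0.364 CPM. The targeted gene, Ehmt2, was at 66.6 to 253 CPM in Ehmt2Cntr (median 133) and at 58.7 to 159 in Ehmt2Mat (median 94.9). The groups overlapped, and the log2 fold change of -0.47 did not pass (edgeR quasi-likelihood test, Benjamini-Hochberg adjusted p = 0.233). The count covers all Ehmt2 exons, and the Ehmt2M/Z embryos held 83.1 ± 20.4 CPM (SD, n = 5), so it checks the labels only weakly. All 6 markers of the 8-cell embryo were found in every embryo, their summed level running from 2004 to 3271 CPM in Ehmt2Cntr and from 2767 to 3647 in Ehmt2Mat. Of these, Tead4 passed as higher in Ehmt2Mat (log2 fold change 0.90, adjusted p = 0.00460 by edgeR) and Klf5 as lower (-1.49, adjusted p = 0.000486), with all 10 Ehmt2Mat embryos below every control for Klf5. Of 6 oocyte transcripts, 5 were present in every embryo, with summed levels of 34.5 to 249 and 96.8 to 324 CPM. Oosp1 was higher in Ehmt2Mat (2.70, adjusted p = 0.00277 by edgeR, 9 of 10 embryos above every control), and the other 4 that were tested did not pass. Of 7 markers of cumulus and granulosa cells, the follicle cells around the oocyte, 3 (Ptx3, Has2 and Foxl2) were at 0 in all embryos. The list summed to 22.5 to 109.5 CPM in Ehmt2Cntr and 43.9 to 166 in Ehmt2Mat. Most of it was Amhr2, except in Ehmt2Mat embryo 3, which held 55.6 CPM of Amhr2 beside 38.2 of Inha and 30.7 of Cyp11a1. Cyp11a1 was at most 0.0904 CPM in Ehmt2Cntr but reached 30.7 in Ehmt2Mat, with 5 of 10 embryos above every control, and Inha was at most 0.127 and reached 38.2, with 4 above every control. Both were highest in Ehmt2Mat embryo 3, and both were at 0 in Ehmt2Mat embryos 8, 9 and 10. The part of these markers in the results below was not tested.

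Of the 10 genes, 9 passed the filter on low counts, and Cenpa alone passed the test between Ehmt2Mat and Ehmt2Cntr, as 1 gene lower and 0 higher by edgeR's quasi-likelihood test. At an unadjusted p under 0.05 edgeR had 2, Cenpa and Asf1a, a count with no share over all genes beside it here. DESeq2 called the same 2, while it called 1771 of the 10842 genes it tested. Over all genes tested, 1099 of 11754 genes passed (9.35%), 585 of them lower (4.98%) and 514 higher (4.37%). The median log2 fold change of the 9 genes was -0.04, as was that of all genes tested (-0.04). None of the 10 had groups that did not overlap, which 61 of the 11754 genes had (0.519%). The plot of levels by embryo shows each gene's values.

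**Figure D1:**
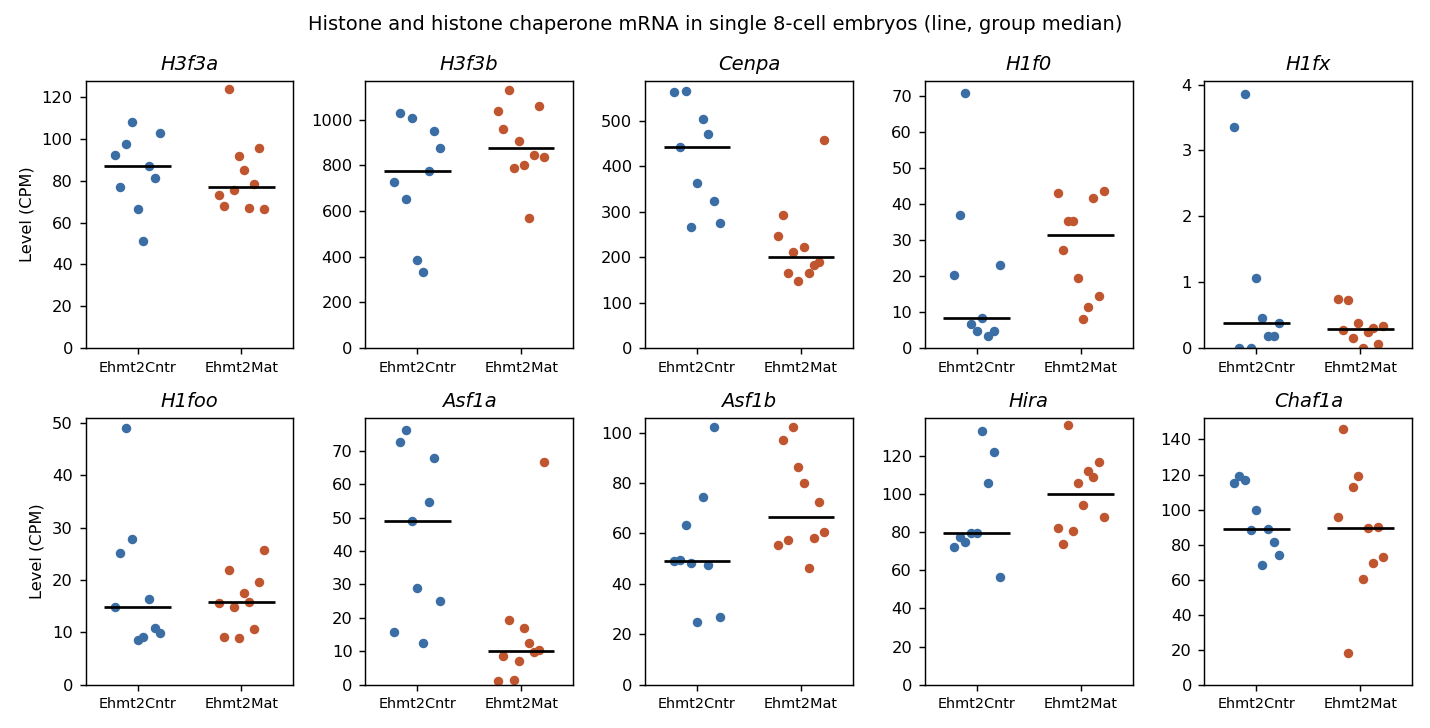
Levels in CPM (linear axes from 0) of the 10 genes in 9 Ehmt2Cntr and 10 Ehmt2Mat embryos, each point an embryo and each line a group median. Cenpa and Asf1a lie low in 9 of 10 Ehmt2Mat embryos, with Ehmt2Mat embryo 10 high for both, while for the other genes the groups lie over each other.

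H3.3 is encoded by H3f3a and H3f3b, whose proteins are the same. Their coding sequences were 411 bases long and differed at 95 of them (76.9% identical), with no shared run longer than 23 bases, so a 50-base read inside the coding part tells the genes apart. The first 120 coding bases are shown because this divergence is what lets both levels be read, with the 24 bases that differ between the genes in capitals. They lie on GRCm38 at chr1:180811807-180811926 for H3f3a and at chr11:116023890-116024009 for H3f3b, both on the minus strand.
H3f3a: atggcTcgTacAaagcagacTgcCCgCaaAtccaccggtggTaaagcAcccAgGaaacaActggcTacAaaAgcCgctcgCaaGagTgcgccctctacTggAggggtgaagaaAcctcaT
H3f3b: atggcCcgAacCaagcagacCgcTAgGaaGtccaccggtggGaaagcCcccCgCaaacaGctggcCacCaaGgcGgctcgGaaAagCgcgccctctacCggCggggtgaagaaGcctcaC

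H3f3b was the more abundant H3.3 gene in every embryo. It was at 334 to 1030 CPM in Ehmt2Cntr (median 775) and at 572 to 1135 in Ehmt2Mat (median 877). H3f3a was at 51.2 to 108 CPM in Ehmt2Cntr (median 86.9) and at 66.3 to 124 in Ehmt2Mat (median 76.9). For each gene the groups lay over each other. Per kilobase of exon, the median level in Ehmt2Cntr was 260 CPM for H3f3b and 24.8 for H3f3a. The log2 fold change was 0.26 for H3f3b (95% interval -0.15 to 0.66, adjusted p = 0.475) and -0.04 for H3f3a (-0.41 to 0.33, adjusted p = 0.922), both by edgeR's quasi-likelihood test with Benjamini-Hochberg adjustment. H3f3a made up 5.98% to 12.8% of the pair's level per length in Ehmt2Cntr (median 9.12%) and 5.65% to 9.03% in Ehmt2Mat (median 7.39%), so that 5 of 9 controls stood above every Ehmt2Mat embryo in this share. Of the 50-base windows of H3f3a transcripts, 27.1% also occur in transcripts of 193 other genes, among them Gm17275, whose exons overlap those of H3f3a, against 6.86% in 3 other genes for H3f3b. After subtraction of the group means, the log2 levels of H3f3a and H3f3b moved together over the 19 embryos (Pearson r = 0.69), the highest value, positive or negative, among the 36 pairs of the 9 genes.

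Cenpa, which encodes the centromeric H3 variant that marks where kinetochores form, was lower in Ehmt2Mat. It was at 267 to 566 CPM in Ehmt2Cntr (median 441) and at 148 to 458 in Ehmt2Mat (median 200.1). The Ehmt2Cntr embryos 1 to 3 held 563, 441 and 566 CPM, and embryos 5 to 10 held 267, 362, 503, 471, 323 and 276. The Ehmt2Mat embryos 1 to 5 held 247, 293, 166, 211 and 148 CPM, and embryos 6 to 10 held 223, 166, 183, 189 and 458. Thus 8 of 10 Ehmt2Mat embryos lay below every control, embryo 2 lay among the lowest controls, and embryo 10 lay above the control median. Of the 3 Ehmt2Mat embryos with no count of Cyp11a1 or Inha, embryos 8 and 9 were below every control and embryo 10 was the highest of its group. Other markers of that list went otherwise: Ehmt2Mat embryo 9 held 164 CPM of Amhr2, the highest of all embryos, and 1.52 CPM of Tnfaip6. So these embryos are not shown to be free of follicle cells, and the part of such cells in the Cenpa level was not tested. The group means were 419 ± 117 CPM (SD, n = 9) and 228 ± 91.6 (SD, n = 10). The log2 fold change was -0.88 (SE 0.21, 95% interval -1.31 to -0.44), a fold of 0.545, with an adjusted p of 0.00978 by edgeR's quasi-likelihood test with Benjamini-Hochberg adjustment. An exact two-sided permutation test of mean log2(CPM + 1) over all 92378 splits of the embryos gave p = 0.00104. Without any single embryo in turn the fold change stayed between -1.04 and -0.81, and each of these 19 fits called it. Per length its level was next after H3f3b in the control medians, at 75.2 CPM per kilobase against 34.1 in Ehmt2Mat. Its exons, at chr5:30666777-30674830 on the plus strand of GRCm38, overlapped no other gene's. Of its windows, 1.54% also occur in transcripts of 519 other genes. Multi-mapped reads were counted, and what they added to its level was not tested.

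The genes listed for CENP-A loading are named after their values were seen, and 0 passed the test by edgeR or DESeq2, nor did any have an unadjusted p under 0.05. Hjurp, the chaperone that brings CENP-A to centromeres, had a log2 fold change of 0.30 (95% interval -0.17 to 0.76), a sign opposite to that of Cenpa. Of the complex that licenses loading, Mis18a was at -0.05 (-0.53 to 0.42) and Oip5 at -0.50 (-1.31 to 0.30).

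The chaperones ASF1A and ASF1B bind the H3-H4 dimer and differ in their use, ASF1A being tied to HIRA and ASF1B to proliferating cells. Their coding sequences differed at 205 of 609 compared bases (66.3% identical), with no shared run longer than 20 bases. The first 109 coding bases, all in the first coding exon, are shown because the result below rests on telling the paralogs apart, with the 24 differing bases in capitals. They lie on GRCm38 at chr10:53597190-53597298 for Asf1a and at chr8:83955829-83955937 for Asf1b, both on the plus strand.
Asf1a: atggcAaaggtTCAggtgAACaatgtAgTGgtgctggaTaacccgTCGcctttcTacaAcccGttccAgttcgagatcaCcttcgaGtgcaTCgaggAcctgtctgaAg
Asf1b: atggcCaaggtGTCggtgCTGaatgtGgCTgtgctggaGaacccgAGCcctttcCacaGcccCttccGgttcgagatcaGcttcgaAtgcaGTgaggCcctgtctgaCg

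Asf1a had the lowest fold of the 9 genes without passing the test. It was at 12.4 to 76.1 CPM in Ehmt2Cntr (median 49.1) and at 1.20 to 66.5 in Ehmt2Mat (median 10.2). The Ehmt2Cntr embryos 1 to 3 held 15.9, 72.5 and 76.1 CPM, and embryos 5 to 10 held 49.1, 28.8, 12.4, 54.6, 67.9 and 25.1. The Ehmt2Mat embryos 1 to 5 held 1.20, 8.49, 19.4, 1.34 and 7.06 CPM, and embryos 6 to 10 held 17.0, 12.4, 9.83, 10.5 and 66.5. Of the 10 Ehmt2Mat embryos, 7 lay below every control and 9 below the control median, and embryo 10 stood among the highest controls. The log2 fold change was -1.54 (SE 0.55, 95% interval -2.67 to -0.41), with an unadjusted p of 0.00963 and a Benjamini-Hochberg adjusted p of 0.0758 by edgeR's quasi-likelihood test. The exact permutation test of this gene alone gave p = 0.00408. Without Ehmt2Mat embryo 10 the log2 fold change was -2.20 and the adjusted p from edgeR 0.00538. With all embryos kept, DESeq2 called it too (adjusted p = 0.0240), as did edgeR with a minimum of 10 counts in every embryo (0.0386). These fits called more of all genes, 1771 of 10842 and 1375 of 7154, than the main fit's 1099 of 11754. The call thus turned on the tool and filter as well as on this embryo. The same embryo, of zygotic genotype +/-, was the highest Ehmt2Mat embryo for Cenpa, it held 77.3 CPM of Ehmt2, and its total count was 12487031. In the exon models that were counted, none of the 2180 exon bases of Asf1a is shared with another gene. In the longer models of GENCODE M21, exons of Mcm9 on the other strand share 43.1% of the windows of Asf1a, and since counting did not use strand, reads from such Mcm9 transcripts would count for Asf1a where they meet its exons. Mcm9 was at 0.118 to 26.3 CPM in Ehmt2Cntr, at 5.91 to 45.7 in Ehmt2Mat and at 5.91 in Ehmt2Mat embryo 10 (log2 fold change 0.26, adjusted p = 0.852 by edgeR). These counts cover only the models that were counted, which share no exon base with Asf1a. They do not measure the longer Mcm9 exons, whose part in the Asf1a level was not tested.

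Asf1b went the other way without passing. It was at 24.7 to 102 CPM in Ehmt2Cntr (median 48.9) and at 46.4 to 102 in Ehmt2Mat (median 66.5), with 9 of 10 Ehmt2Mat embryos above the control median and the groups overlapping. The log2 fold change was 0.41 (95% interval -0.10 to 0.92, adjusted p = 0.341 by edgeR, exact permutation p = 0.0583). Asf1a therefore made up 15.1% to 61.2% of the Asf1 pair per length in Ehmt2Cntr (median 52.1%), and 1.38% to 54.0% in Ehmt2Mat (median 14.4%). It was the larger part in 5 of 9 controls and in 1 of 10 Ehmt2Mat embryos, again embryo 10. These shares are a description and carry no test.

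**Figure D2:**
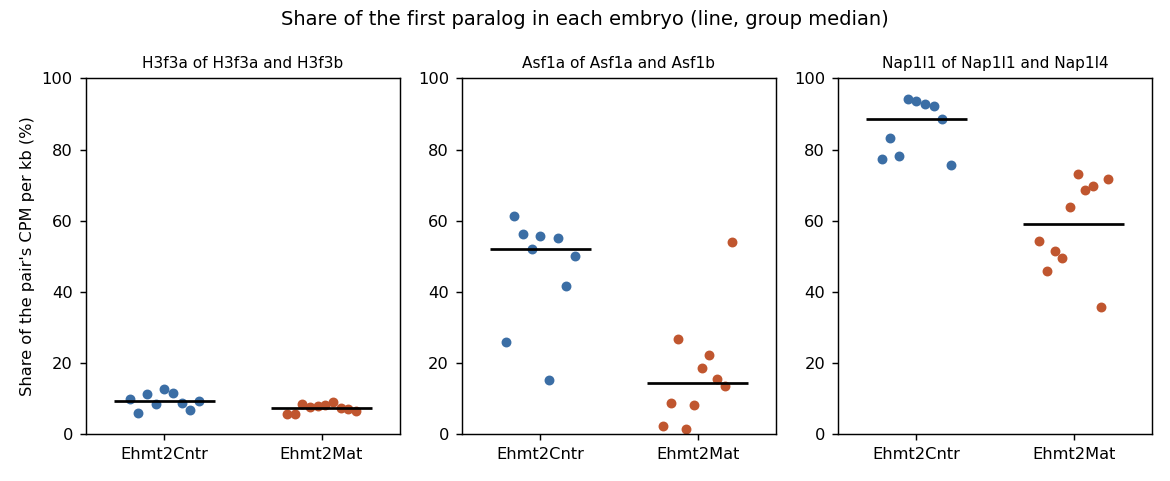
Share (%) of the first gene in the CPM per kilobase of 3 paralog pairs, each point an embryo and each line a group median. H3f3a is a small part of H3.3 in both groups (medians 9.12% and 7.39%), Asf1a has medians of 52.1% and 14.4% of the Asf1 pair, and Nap1l1 lies at 75.6% or more of its pair in each control and at 73.0% or less in each Ehmt2Mat embryo. Nap1l1 and Nap1l4 had passed the test in opposite directions, so the split of their share is no separate result. In CPM the groups overlapped for each of them.

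The final deposition factors among the 10 genes did not pass. Hira, the H3.3 chaperone subunit that gives its complex the name, was at 56.6 to 133 CPM in Ehmt2Cntr (median 79.4) and at 73.6 to 136 in Ehmt2Mat (median 100.2). Chaf1a, the large subunit of CAF-1, was at 68.6 to 119 CPM (median 89.0) and at 18.1 to 146 (median 89.8). The groups overlapped for both genes. The log2 fold change was 0.17 for Hira (95% interval -0.21 to 0.55, adjusted p = 0.651) and -0.12 for Chaf1a (-0.64 to 0.40, adjusted p = 0.845), by edgeR's quasi-likelihood test. Reads of these genes were partly shared: 45.3% of the exon bases of Hira also belong to Gm28539 and 18.7% of those of Chaf1a to Ubxn6, and the counting gave such reads to both genes. Of the 8988 50-base windows of Chaf1a transcripts in GENCODE M21, 49.7% also occur in transcripts of 129 other genes. The counted model of Chaf1a has only 3308 exon bases, so many of these windows lie outside what was counted. For Hira 42.0% of the windows also occur in Gm28539.

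The linker histones had the lowest control medians per length of the set, and 0 of the 2 tested passed by edgeR or DESeq2, nor had either an unadjusted p under 0.05. H1f0, the replacement H1 best known from cells that stop dividing, was at 3.40 to 70.8 CPM in Ehmt2Cntr (median 8.23) and at 7.98 to 43.5 in Ehmt2Mat (median 31.3). The Ehmt2Mat values lay within the control range, and the 3 controls of zygotic genotype +/- held 20.3, 70.8 and 23.2 CPM against 3.40 to 37.1 in the 6 +/+ controls. The log2 fold change was 0.49 (95% interval -0.57 to 1.54, adjusted p = 0.629 by edgeR), and it turned to -0.30 among +/- embryos alone. Without Ehmt2Cntr embryo 3, the highest, it was 1.05 (adjusted p = 0.190 by edgeR), and the exact permutation p went from 0.0999 to 0.0225. H1foo, the oocyte H1, was still found in every embryo, at 8.47 to 49.0 CPM in Ehmt2Cntr (median 14.8) and at 8.92 to 25.8 in Ehmt2Mat (median 15.7). Its log2 fold change was -0.25 (95% interval -0.998 to 0.49, adjusted p = 0.745 by edgeR), and without Ehmt2Cntr embryo 3, the highest, it was 0.06. H1fx was under the filter, with 0 to 64 counts in Ehmt2Cntr and 0 to 8 in Ehmt2Mat, and medians of 0.382 and 0.292 CPM, near what 3 counts are worth. Controls 1, 3 and 6 held 58, 64 and 23 counts, more than any Ehmt2Mat embryo, while the other controls lay among the Ehmt2Mat embryos or at 0, and the difference did not pass (exact permutation p = 0.226). Of the 8 replication-dependent and testis H1 genes, 7 were also under the filter, and H1fnt and Hils1 had no count in any embryo. The amplified cDNA starts from poly(A) RNA, which most replication-dependent histone mRNA lacks.

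Ordered by the control median per kilobase of exon, H3f3b (260 CPM) and Cenpa (75.2) stood above Chaf1a (26.9), H3f3a (24.8), Asf1a (22.5) and Asf1b (20.9), and these above Hira (12.9), H1foo (12.4), H1f0 (3.60) and H1fx (0.314). In Ehmt2Mat the medians per kilobase ran H3f3b (295), Cenpa (34.1), Asf1b (28.4), Chaf1a (27.1), H3f3a (21.96), Hira (16.3), H1f0 (13.7), H1foo (13.1), Asf1a (4.66) and H1fx (0.240). The control ranges of H3f3b, Cenpa and Chaf1a did not overlap, while from Chaf1a down each gene's range overlapped that of the next. Because the libraries favour the 3′ end, a level per kilobase understates genes with long exon models, of which Cenpa with 5860 exon bases and Hira with 6132 are the longest here. Embryos of a group varied least in H3f3a (SD 0.31 on the log2 CPM scale) and Hira (0.34) and most in H1f0 (1.22) and Asf1a (1.40), against a median SD of 0.93 over all genes tested. For 7 of the 9 genes the SD was under that median, but most of these were also more abundant than the median gene. H3f3a, H3f3b, Cenpa, Asf1b, Hira and Chaf1a had mean log2 CPM of 5.89 to 9.63, against a median of 4.05 over all genes tested. H1f0 and Asf1a were at 4.13 and 4.14. Spread at matched level was not compared.

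Among the 38 other histone supply genes listed, 31 were tested, 2 were higher and 2 lower, to be read against the 4.37% and 4.98% of all genes. The median log2 fold change of the 31 was 0.07. The genes of the H2A-H2B carriers NAP1L1 and NAP1L4, nucleosome assembly proteins, passed in opposite directions. Nap1l1 was at 465.8 to 1522 CPM in Ehmt2Cntr (median 771) and at 181 to 660 in Ehmt2Mat (median 433), with 7 of 10 Ehmt2Mat embryos below every control (log2 fold change -1.21, SE 0.24, adjusted p = 0.00241 by edgeR). Nap1l4 was at 44.0 to 117 CPM and at 97.5 to 195, with 8 of 10 Ehmt2Mat embryos above every control (1.10, SE 0.20, adjusted p = 0.00161 by edgeR). Nasp, which holds a reserve of soluble H3-H4, rose from a median of 628 CPM to 1254 (0.71, SE 0.21, adjusted p = 0.0334). Rbbp4, a subunit that CAF-1 shares with deacetylase and Polycomb complexes, fell from a median of 53.0 CPM to 26.4 (-1.12, SE 0.35, adjusted p = 0.0455). Leaving out single embryos lost the call of Rbbp4 in 15 of 19 fits and that of Nasp in 8 of 19, and no call of Nap1l1, Nap1l4 or Cenpa. Among +/- embryos alone all 4 of these list genes lost their calls, and the log2 fold change was -0.42 for Nap1l1, 0.54 for Nap1l4, 0.27 for Nasp and -0.91 for Rbbp4. With zygotic copies as a covariate it was -0.51, 0.64, 0.36 and -1.03 for the same genes, again with no call. The 6 genes listed for H3.3 deposition held 0 calls by edgeR. At an unadjusted p under 0.05 edgeR had 3, a count with no share over all genes beside it here. DESeq2, which called 1771 of 10842 genes, called 1 of the 6, Atrx. Atrx, a remodeller that acts with DAXX at telomeres and repeats, is named after its values were seen (log2 fold change -0.89, adjusted p = 0.0540 by edgeR).

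**Figure D3:**
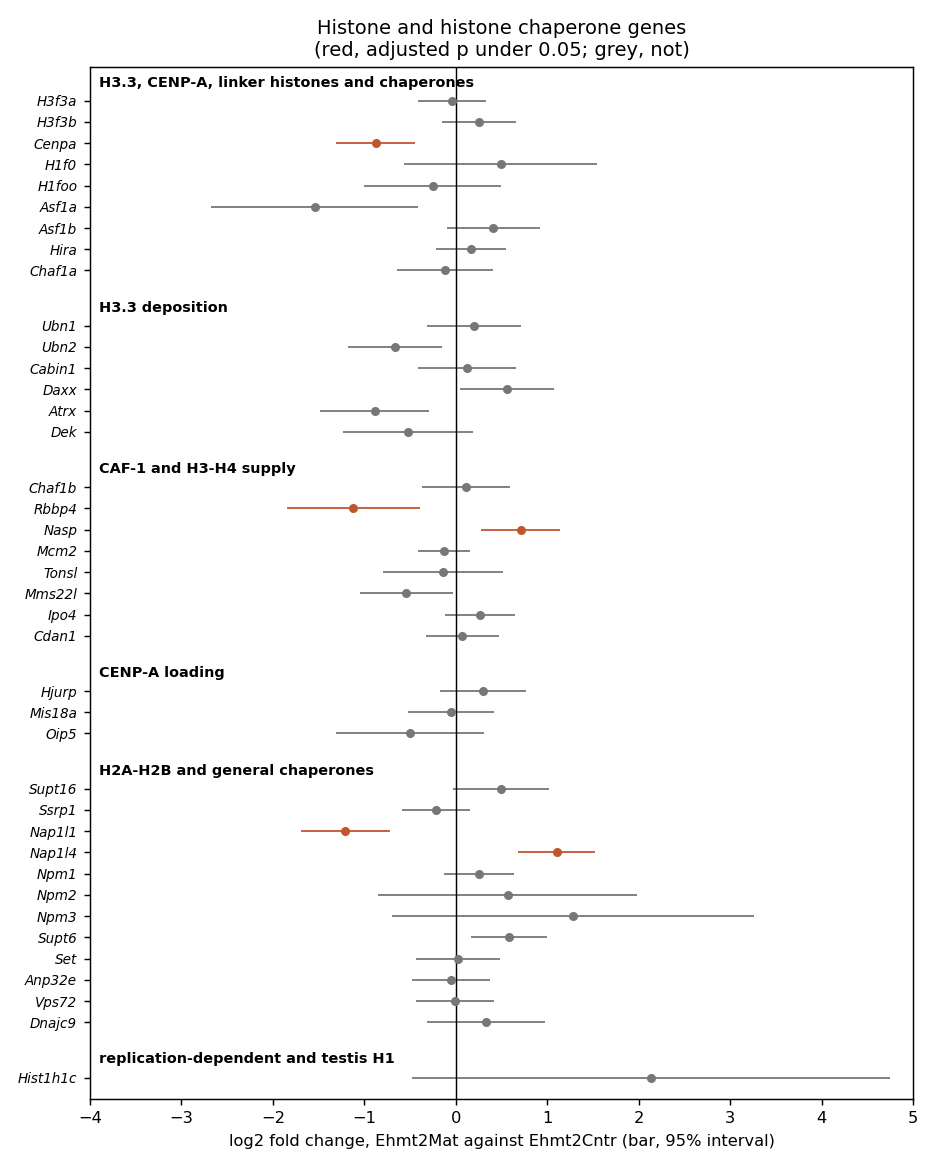
Log2 fold change of Ehmt2Mat against Ehmt2Cntr with its 95% interval (bars) for 9 of the 10 genes and for other histone supply genes tested, red where the adjusted p was under 0.05. Cenpa, Nap1l1 and Rbbp4 lie to the left of 0 and Nap1l4 and Nasp to the right, while the interval of Asf1a lies below 0 without an adjusted p under 0.05.

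Within the maternally depleted embryos, Ehmt2M/Z was compared with Ehmt2M/+ to ask whether a zygotic Ehmt2 copy moves these genes. None of the 9 genes tested passed by edgeR or DESeq2, with 1 (Asf1a) at an unadjusted p under 0.05, and neither did any of the 12195 genes tested by edgeR (0%), 270 of which had an unadjusted p under 0.05, while DESeq2 called 3. Asf1a was at 8.49 to 66.5 CPM in the 5 Ehmt2M/+ embryos and at 1.20 to 12.4 in the 5 Ehmt2M/Z embryos. Its log2 fold change was -1.90 (SE 0.76, unadjusted p = 0.0259 by edgeR, Benjamini-Hochberg adjusted p = 0.9997), and -1.06 without Ehmt2Mat embryo 10. Cenpa was at 265 ± 119 CPM (SD, n = 5) in Ehmt2M/+ and 192 ± 38.9 (SD, n = 5) in Ehmt2M/Z, with a log2 fold change of -0.46 (95% interval -1.07 to 0.15), or -0.16 without that embryo.

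The zygotic genotype also differs between the maternal groups. Between the 3 Ehmt2Cntr and 5 Ehmt2Mat embryos of zygotic genotype +/-, Cenpa was at 468 ± 167 and 265 ± 119 CPM (SD), a log2 fold change of -0.84 that did not pass (SE 0.37, adjusted p = 0.714 by edgeR), in a fit that called 1 of 13401 genes. Asf1a there was at 39.0 ± 32.4 and 24.3 ± 24.1 CPM (SD), a log2 fold change of -0.51, less than its spread between embryos. With the number of functional zygotic copies as a covariate Cenpa was at -0.73 (adjusted p = 0.489), in a fit that called 3 of 11754 genes.

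**Figure D4:**
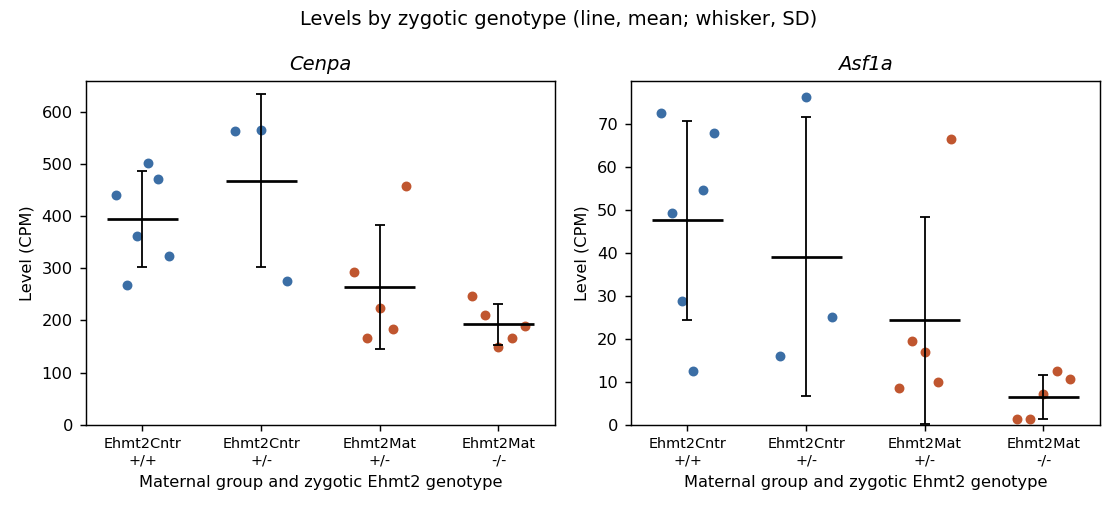
Cenpa and Asf1a in CPM by maternal group and zygotic Ehmt2 genotype (6, 3, 5 and 5 embryos), with each embryo as a point, the mean as a line and the SD as a whisker. Cenpa lies lower in both Ehmt2Mat genotypes than in the controls (means 265 and 192 against 394.5 and 468 CPM), and the mean of Asf1a is lowest in -/- embryos, all at 12.4 CPM or less.

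The genes whose group-centred log2 levels were most like each of the 9 over the 19 embryos, the 3 highest Pearson correlations of 11753 compared, are given as a description, since embryos share library preparation and differ in depth. For the H3.3 genes they were Gm14798, Zfx and Snu13 (H3f3a, r = 0.84 to 0.82) and Dhx9, Ttf1 and Depdc7 (H3f3b, 0.86 to 0.84). For Cenpa they were Zfp326, Ccdc73 and Slc39a14 (0.75 to 0.72). For the linker histones they were 4933427D14Rik, 1810019D21Rik and Tbxa2r (H1f0, 0.83 to 0.80) and Tbc1d19, Gdf9 and Srp9 (H1foo, 0.82 to 0.80), Gdf9 being another oocyte transcript. For the ASF1 genes they were Map4k5, Mfap1b and Txndc16 (Asf1a, 0.75 to 0.72) and Aurkb, Crkl and Pgm3 (Asf1b, 0.77 to 0.68), Aurkb encoding a kinase of mitotic chromosomes. For the deposition factors they were Cops3, Prpsap2 and Stam2 (Hira, 0.80 to 0.73) and Itga1, Iqca and Wrnip1 (Chaf1a, 0.88 to 0.86).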

How the data were processed

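Single embryos were lysed after removal of the zona pellucida, and their cDNA was amplified, which favours 3′ ends, fragmented and sequenced as single 50-base reads with a library kit that does not mark strand. The deposited values are counts per gene that the authors made with featureCounts 1.5.0 per the file headers, over the exons of Ensembl release 82 on GRCm38 without strand, with a minimum overlap of 10 bases, counting reads in overlapping genes for each of them and multi-mapped reads too. The aligner behind these counts is not given in the file headers, and the study's methods name TopHat2 for gene counts and bowtie with unique hits for repeats. The authors' own differential test was run with DESeq2 and is not used here.

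Genes were named through the annotation (34599 of 34937 IDs matched). Counts of 9 Ehmt2Cntr and 10 Ehmt2Mat embryos were tested with edgeR 4.0.16 (R 4.3.3): filterByExpr, TMM scaling, quasi-likelihood test, Benjamini-Hochberg adjustment over all genes tested and a threshold of 0.05. SE is the log2 fold change over the root of F, and intervals are 95% t intervals. CPM values use TMM-scaled totals. Single genes were also tested by an exact two-sided permutation of mean log2(CPM + 1) (Python 3.11.15, NumPy 2.4.6). Ehmt2M/Z was compared with Ehmt2M/+ on the 10 Ehmt2Mat embryos. The scripts were tested on simulated counts. In the maternal comparison they recovered 13% of true log2 fold changes of size 1 and 67% of those of size 2. In the zygotic comparison they recovered 3% and 42%. A gene that did not pass is therefore not shown to be unchanged. Alternatives were DESeq2 1.42.0, RLE and upper-quartile scaling, other filters, thinned counts, a replicate block, zygotic genotype, and each embryo left out. Embryo numbers did not pair the samples: over 9 pairs of the same number the correlation of deviations ran from -0.16 to 0.09, with 0 pairs over 0.1. Nothing states that embryos of a group come from separate litters, so p-values measure the spread between embryos.

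The 10 genes and the gene lists were chosen with earlier results of these data known. The rule for named genes took the 10 genes, Ehmt2, list genes that passed the test, and the 3 genes most like each of the 10 that was tested. Outside it, the genes of CENP-A loading, Atrx, Mcm9, single marker genes and H1 genes at 0 were named after their values were seen. Coding sequences and 50-base windows come from GENCODE M21 (GRCm38). A gene of these lists is not reported here.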

Additional observations from a re-analysis of the deposited data

Results flagged for a closer look

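In a screen of the 10 genes in each group for a lowest or highest embryo set apart from the rest by Dixon's test on log2(CPM + 1), 2 of 20 groups were marked, where chance marks about 1 in 20. Chaf1a was at 18.1 CPM in Ehmt2Mat embryo 3, against 60.6 in the next embryo, and this embryo had the lowest total count of all, 8231646. H3f3b was at 572 CPM in Ehmt2Mat embryo 7, against 791 in the next. Without these embryos the log2 fold change was 0.0028 for Chaf1a and 0.31 for H3f3b. On the CPM scale itself the same test marked neither of them but 5 other groups, each for its highest embryo: Cenpa (458 CPM, next 293) and Asf1a (66.5, next 19.4) in Ehmt2Mat embryo 10, H3f3a (124, next 95.4) in Ehmt2Mat embryo 3, and H1f0 (70.8, next 37.1) and H1foo (49.0, next 27.8) in Ehmt2Cntr embryo 3. Ehmt2Mat embryo 3 was also the highest for the follicle cell markers Cyp11a1 (30.7 CPM) and Inha (38.2), whose part in these values was not tested.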

How the results depend on the processing

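Of the 10 genes, 1 was called (Cenpa). DESeq2, a minimum of 10 counts in every embryo and the replicate block each called 2, Asf1a joining Cenpa (Asf1a adjusted p = 0.0240, 0.0386 and 0.0464). Over all genes these fits called 1771 of 10842, 1375 of 7154 and 693 of 11446, against 1099 of 11754 in the main fit. The +/- embryos alone and the zygotic copy covariate called 0, and leaving out single embryos gave 1 to 2. Of the other histone supply genes 4 were called, 0 among +/- embryos and with the copy covariate, and 2 to 5 without single embryos, 2 being left without Ehmt2Cntr embryo 7, 8 or 9 or Ehmt2Mat embryo 3 or 4. Rbbp4 also lost its call with upper-quartile scaling (adjusted p = 0.0568), without a filter (0.0557) and with the block (0.127). The block ran over 9 pairs of embryo numbers that do not pair the samples. H1f0 turned to -0.30 among +/- embryos and to -0.066 with the covariate. The zygotic comparison of Hira, at -0.0024, turned to 0.0031 without a filter and to 0.010 in a fit over all 19 embryos. Leaving out single embryos moved the maternal comparison of H3f3a from -0.13 to 0.0035, of H1foo from -0.35 to 0.064 and of Chaf1a from -0.23 to 0.0028, and their log2(CPM + 1) differences from -0.12 to 0.011 for H3f3a and from -0.19 to 0.11 for H1foo. It moved the zygotic comparison of H3f3a from -0.13 to 0.11, of H3f3b from -0.14 to 0.061, of H1foo from -0.34 to 0.029, of Asf1b from -0.11 to 0.18 and of Hira from -0.094 to 0.12. The causes were not tested. The zygotic comparison called none of the 10 genes under any alternative, and the exact test passed 2 genes, or 2 to 3 without single embryos. The gene gained by the exact test was Asf1b (without Ehmt2Cntr embryo 7 or 9 or Ehmt2Mat embryo 7) or H1f0 (without Ehmt2Cntr embryo 3). Levels near those of H1fx rest on few counts, 3 counts being worth up to 0.364 CPM.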
